A study of Homo sapiens with 3 samples.

Results

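The 373 genes described here held ribosome peaks in the DDX3X G325E list alone. They were chosen by peak number: at least 3 peaks in the G325E list, 0 in the wild-type DDX3X list and 0 in the vector list. In all, 3580 genes had a peak in some list, and 24 more genes met the same numbers but were left out because their symbols belong to large families (RPL, RPS, EIF, EEF, HNRNP, SRSF, HIST, PSM, SLC, ZNF, HOX, SOX or FOX). A peak was given to the gene whose RefSeq transcript stands in its annotation, and otherwise to the nearest gene named in the list. The peak numbers that follow therefore describe how the genes were picked and support nothing beyond it. The large families stay in the other genes of the G325E list and in the whole wild-type and vector lists set beside the 373. They are left out of the genes of the wild-type list alone. The part that these families have in the differences was not tested.

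The cells were HEK293T, a line made from human embryonic kidney and carrying the SV40 large T antigen, transfected transiently for 24 h with 1 of 3 constructs. These were the empty vector, FLAG-tagged wild-type DDX3X and FLAG-tagged DDX3X carrying the G325E substitution, each sequenced as 1 library with no replicate. All 3 groups still carried the DDX3X of the cells themselves. Ribosome-protected fragments were sequenced after harringtonine at 2 μg/ml for 90 s and cycloheximide at 100 μg/ml according to the labels, whereas the study's methods name cycloheximide only, so which blocks were used was not settled here. With 1 library per construct, a difference between constructs cannot be set against the spread between cultures, and no test of any difference was made. The intervals given are 95% Wilson intervals, which cover the counting of peaks only, and neighbouring peaks of a gene are not independent.

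DEAD-box RNA helicases, among them DDX3X, spend ATP to open short RNA duplexes, and DDX3X is known to act with the initiation machinery on mRNAs with structured leaders. In ribosome profiling, nuclease digestion leaves the stretch of mRNA covered by a ribosome, and a peak is a short run of bases where such fragments pile up. Elongating ribosomes leave fragments along the coding sequence, and initiating ribosomes leave them near its start.

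The peaks of these genes were rich in G and C, so short peaks of some of the genes are shown first. Each lies on the strand of its gene, is at most 30 bases long, and is written 5′ to 3′ from GRCh37, the build of the lists. Capitals mark CGGCGG or CCGCCG, 6-base words that are reverse complements of each other.
CDKN1C, later intron, chr11:2905557-2905586, minus strand: agcgCGGCGGCGGccccggggggcttggcc
GRK5, upstream of the canonical start site, chr10:120966550-120966570, plus strand: CCGCCGCCGcgtgcggggacc
STK11, upstream, chr19:1205653-1205676, plus strand: gCGGCGGggcgggcagagggccgg
SRF, 5′ UTR, chr6:43139081-43139098, plus strand: ccacCCGCCGtctcggcc
FMN2, upstream, chr1:240255067-240255095, plus strand: gggcagagggggCGGCGGCGGCGGgcggg
BAZ1A, first intron, chr14:35344167-35344196, minus strand: gagcctggCGGCGGCGGCGGgcgaggagcc
JUND, coding sequence, chr19:18391605-18391630, minus strand: tcCCGCCGCCGccacccccaggcgcg
SP9, coding sequence, chr2:175201873-175201895, plus strand: cgctggcacacgggcgagcggcc
EGLN1, coding sequence, chr1:231556746-231556773, minus strand: ggcagctacaaaatcaatggccggacga
The first 7 hold the repeat and the last 2 do not. GC made up 53.6% of the EGLN1 peak, 82.6% of the SP9 peak and 93.1% of the FMN2 peak. They were picked after the sequences were seen, to show the repeat in each of these regions, with a pair of coding peaks that lack it.

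The genes made up 11.5% of the 3233 genes with a peak in any list after the large families were set aside. Of the 1756 such genes with at least 3 G325E peaks, 21.2% had none in the other lists. Turning the rule round gave a like share for wild-type DDX3X, where 438 genes had at least 3 peaks in that list alone, 13.5% of all and 20.4% of the 2145 genes with at least 3 wild-type peaks. For the vector list the number was 25, or 0.773% of all and 1.87% of 1335. The share of genes seen in 1 list alone was thus close between G325E and wild-type, and the number of such genes is not by itself particular to G325E.

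Together the 373 genes held 2667 of the 15680 G325E peaks. A gene had a median of 7 peaks, with quartiles of 5 and 9 and a range from 3 to 19, and 80 genes had 10 or more. The 438 genes of the wild-type list alone had a median of 5 peaks and reached 41. The plot of peaks per gene shows that the wild-type genes crowded at 3 and 4 peaks, where there were 102 and 80 of them, while numbers of G325E genes were level from 3 to 7 peaks, between 44 and 48 at each.

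**Figure D1:**
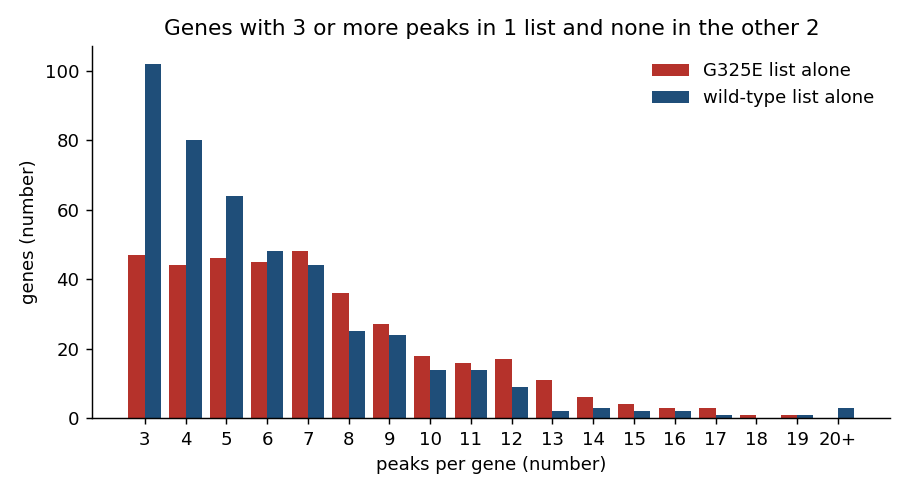
Number of genes (vertical axis) with each number of peaks (horizontal axis, peaks per gene, with 20 or more in the last bin) among genes with at least 3 peaks in the G325E list alone (red) and in the wild-type list alone (blue). The 47 G325E genes at 3 peaks stand beside 102 wild-type genes, and at 7 peaks the numbers were 48 and 44.

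The peaks of a gene lay close together, usually over less than 1 kb. From the first to the last peak the median stretch was 602 bp, with quartiles of 394 and 844 bp, and 322 of the 373 genes were under 1000 bp. The narrowest was TMEM184B at 121 bp and the widest ITM2C at 13277 bp. Of 2294 gaps between neighbouring peaks of a gene, taken without regard to strand, 1187 were under 30 bp. Whether such neighbours belong to 1 run of protected RNA was not tested. Stretches and gaps were not computed for other genes, so they are not shown to be particular to the 373. The median peak length was 29 bp, against 30 bp for the peaks of other genes in the G325E list.

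Most of the peaks were annotated at transcription start sites or in the 5′ UTR (untranslated region). HOMER, the tool whose annotation the lists carry, placed 1178 of the 2667 peaks (44.2%, interval 42.3 to 46.1) in its promoter-TSS class and 323 (12.1%) in the 5′ UTR, together 56.3%. For peaks of the other genes in the same list the joint share was 40.7% (39.9 to 41.6), for the whole wild-type list 26.3% and for the vector list 28.1%. Exon peaks ran the other way, at 23.5% (21.9 to 25.1) against 38.0% for other genes in the G325E list, 51.6% in wild-type and 49.5% in vector. Introns held 427 peaks, an interval of 14.7 to 17.5%, against 12.5% of the other G325E peaks. The 3′ end was almost empty, with 5 peaks (0.19%) in the 3′ UTR class and 22 (0.82%) at transcription termination sites. Both classes were small in every list. Other G325E peaks had 1.15% and 4.20%, wild-type 1.58% and 4.87%, and vector 1.22% and 5.68%. Genes of the wild-type list alone had the opposite make-up, with 59.5% of their peaks in exons and 17.1% at promoter-TSS.

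**Figure D2:**
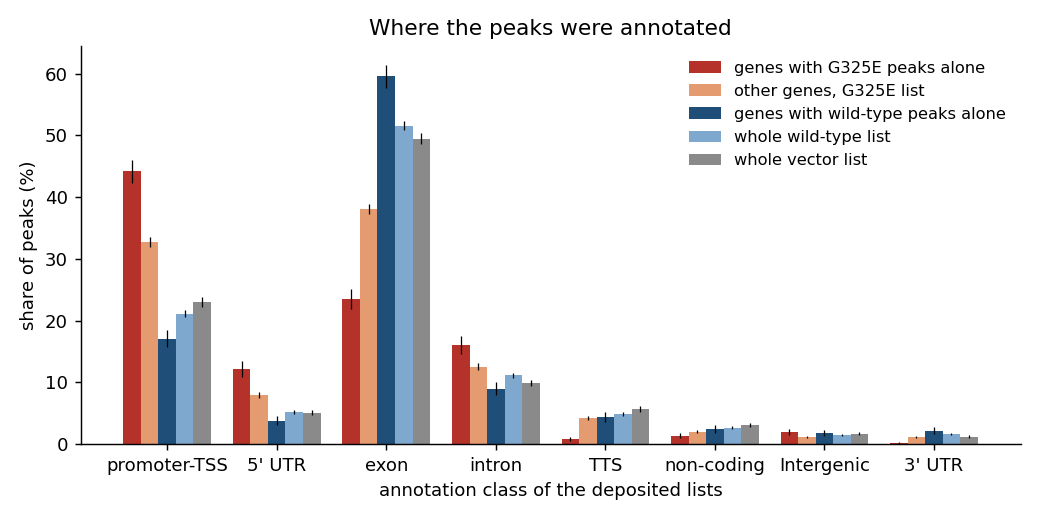
Share of peaks (vertical axis, %) in each annotation class of the deposited lists for the genes with G325E peaks alone, the other genes of the G325E list, the genes with wild-type peaks alone, and the whole wild-type and vector lists. Error bars are 95% Wilson intervals over peaks. Set against the other bars of the same class, the red bars are highest at promoter-TSS (44.2%) and 5′ UTR (12.1%) and lowest at exon (23.5%). They are also highest at intron and Intergenic and lowest at TTS, non-coding and 3′ UTR.

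The promoter-TSS class covers bases on both sides of a start site, so peaks were also placed on the GENCODE canonical transcript of each gene, 1 transcript per gene lifted to GRCh37. This could be done for 364 of the 373 genes and 2604 of their peaks. On these transcripts 30.5% (28.8 to 32.3) of the peaks lay upstream of the start site, 26.5% in coding sequence, 24.5% in the 5′ UTR, 14.8% in the first intron and 2.42% in later introns. The other genes of the G325E list had 23.9% upstream, 41.2% coding, 14.8% in the 5′ UTR and 12.2% in the first intron. Peaks of the 373 genes crowded around the start site, with 71.8% within 500 bp and 87.1% within 1000 bp. Within 500 bp the other G325E peaks had 51.7%, wild-type 32.0% and vector 34.1%. Coding peaks were weighted to the front as well. Of 576 on the strand of the gene, 69.3% fell in the first 25% of the coding sequence, against 41.4% for other genes in the G325E list and 29.7% in wild-type.

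Many of these positions are outside annotated mature RNA. In an exon of any GENCODE transcript on the strand of the peak lay 56.5% (54.6 to 58.3) of the peaks of the 373 genes, compared with 71.1% of the other G325E peaks, 79.9% in wild-type, 81.7% in vector and 83.0% in the genes of the wild-type list alone. On neither strand was there an exon under 832 of the 2667 peaks (31.2%, 29.5 to 33.0). Viewed by gene, 181 of the 364 had at least 3 peaks in canonical exons on their own strand, 52 had none there, and 310 had a peak upstream of the canonical start site or in an intron. The same counts were not made for other genes.

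A sizeable share of the peaks was on the strand that does not encode the gene. Of the 2604 placed peaks, 825 (31.7%, 29.9 to 33.5) were listed on the opposite strand, against 23.8% (23.0 to 24.5) of the other G325E peaks, 20.9% in wild-type and 19.4% in vector. Position went with strand: 47.7% of upstream peaks and 46.5% of first-intron peaks were opposite, but 17.1% of 5′ UTR peaks and 16.5% of coding peaks. For coding peaks that share was 6.09% (5.47 to 6.77) in the other genes of the G325E list, 3.84% in wild-type and 3.77% in vector. Upstream the other genes had 47.5%, next to the value of the 373 genes. Only 178 of the 825 opposite-strand peaks (21.6%, 18.9 to 24.5) lay in an annotated exon on their own strand, compared with 35.5% of those of other G325E genes and 50.9% in wild-type. At least 1 opposite-strand peak was found in 296 of the 364 genes, a number with no like count for other genes to set it beside. In 16 genes every peak was on that strand. TMEM99 was one of these, with 10 of 10 peaks opposite to the gene. Unlike most opposite-strand peaks here, all 10 lay in an annotated exon on their own strand, so they are uncertain for TMEM99. Its current name is KRT10-AS1, an antisense gene.

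**Figure D3:**
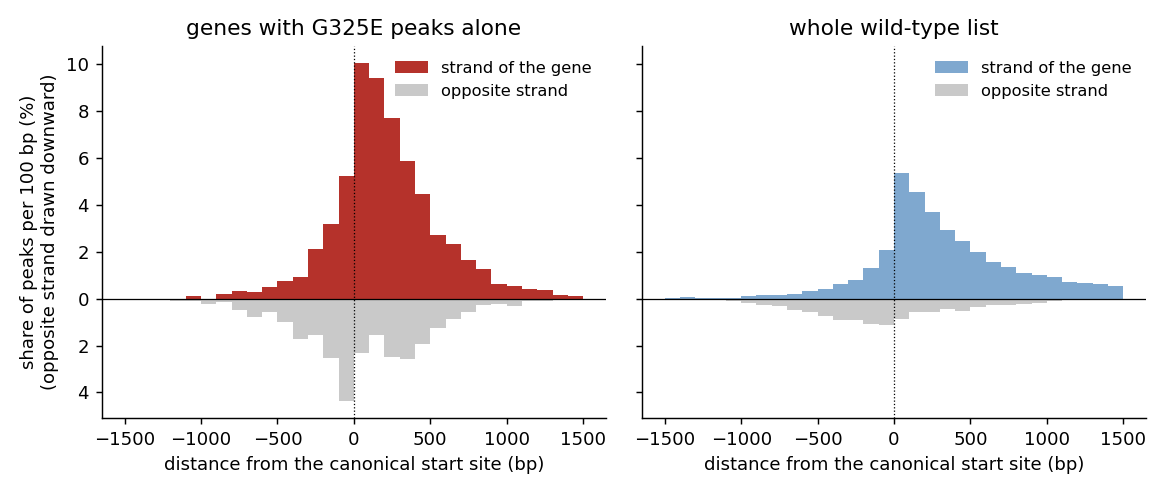
Share of placed peaks in bins of 100 bp (vertical axis, %) by distance from the canonical start site (horizontal axis, bp, positive into the gene), for the genes with G325E peaks alone (left) and the whole wild-type list (right). Bars above the line are peaks on the strand of the gene and bars below it peaks on the opposite strand; on the left the first 100 bp held 10.1% on the gene's strand and the 100 bp before the site 4.38% on the opposite strand.

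Peaks of the 373 genes were rich in G and C. In the 31 nt around a peak's midpoint the mean GC was 78.7% ± 10.3 (SD over 2667 peaks) and the median 80.6%. Other genes in the G325E list had a mean of 72.0% ± 12.9, the wild-type list 62.3% ± 13.5, the vector list 62.8% ± 13.3 and the genes of the wild-type list alone 60.2% ± 13.5. At least 70% GC was reached by 83.7% (82.2 to 85.0) of the peaks, against 59.9% of the other G325E peaks, 32.5% in wild-type and 33.2% in vector. Start-site regions are GC-rich in themselves, so the values were also taken at matched positions. Within 500 bp of the start site the share at 70% or more was 87.9% (86.3 to 89.3) in the 373 genes, 76.1% in other G325E genes, 59.4% in wild-type and 57.9% in vector. In canonical coding sequence it was 74.5% (71.1 to 77.6), 43.0%, 20.3% and 21.7%. Introns were the exception, with a median of 80.6% both here and in other genes of the G325E list. The difference between the G325E peaks and the other lists thus held at each position compared, and it was there for the other genes of the G325E list too. The part that a GC shift of the whole library has in the values of the 373 genes was not tested.

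**Figure D4:**
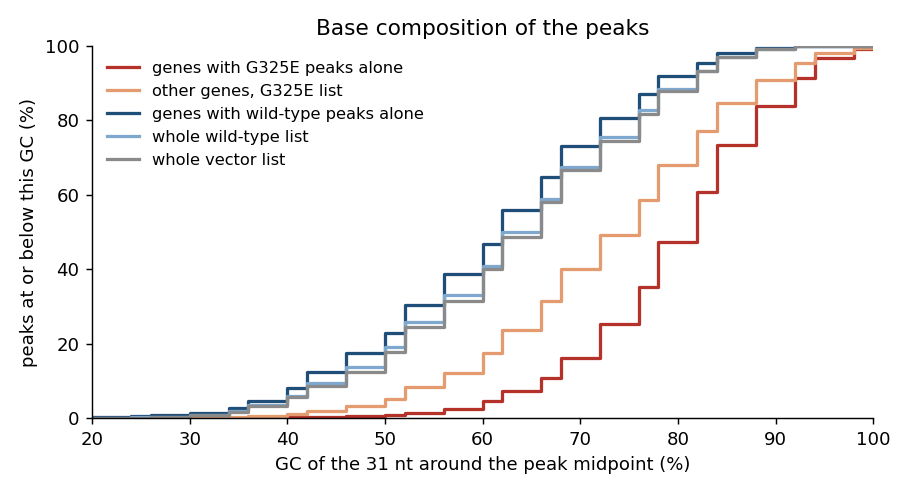
Cumulative share of peaks (vertical axis, %) at or below each GC content of the 31 nt around the midpoint (horizontal axis, %). The curve of the genes with G325E peaks alone lies furthest right, with a median of 80.6%, the other G325E peaks follow at 74.2%, and the wild-type and vector lists share a median of 64.5%.

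The genes themselves also had GC-rich starts. Over the 501 bases centred on the canonical start site the median GC was 73.3% (quartiles 68.0 and 77.6%) in the 364 placed genes. It was 69.5% in the other genes with at least 3 G325E peaks and 65.7% in the genes of the wild-type list alone. Their canonical 5′ UTRs were longer too, with a median of 179 nt over 351 coding genes, against 113 and 108 nt in those groups. The other genes with at least 3 G325E peaks, 1603 in number, include the large families, whose part in these differences was not tested. Of the 373 genes, 337 (90.3%) had a median peak GC of at least 70%, a share not computed for other genes. PRKACA, the catalytic subunit of protein kinase A, was at the top with a median of 95.2% over 4 peaks. Near the bottom was EPHX1, a microsomal epoxide hydrolase, with 51.6% over 3 peaks. CHADL had the lowest median, 48.4% over 3 peaks, although the RefSeq table gives those peaks to RANGAP1. PRKACA, EPHX1 and CHADL were named here after their values were seen.

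The repeat shown in the sequences above was more frequent here as well. CGGCGG stood in the 31-nt window, on the strand of the peak, in 355 of the 2667 peaks (13.3%, 12.1 to 14.7), and CCGCCG in 350 (13.1%). Other G325E peaks had 9.47% and 7.83%, wild-type 3.72% and 2.96%, vector 4.37% and 3.20%. GGGCGG or CCGCCC, which can overlap the first words, was found in 25.1% (23.5 to 26.8), 15.6%, 6.95% and 7.00% in the same order. Windows with more GC hold all of these words more often, and the shares were not adjusted for GC. The CGGCGG and CCGCCG shares were alike, so the word was no more frequent on one strand than the other.

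CDKN1C, which encodes the cyclin-dependent kinase inhibitor p57, had the most peaks of all 373 genes. Its gene lies on the minus strand of chromosome 11 between bases 2904443 and 2907005. It had 19 peaks in the G325E list, 0 in the wild-type list and 0 in the vector list. All 19 were on the strand of the gene. On the canonical transcript 9 fell in coding sequence, 6 in a later intron, 2 in the 5′ UTR and 2 upstream, and the median GC was 80.6%. Taking exons of any GENCODE transcript on that strand, 17 of the 19 lay in an exon, so the intron call depends on the transcript taken.

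HDAC4, a class IIa histone deacetylase that represses transcription, came next with 18 G325E peaks and 0 in each other list. The gene spans bases 239969864 to 240323348 of chromosome 2 on the minus strand, and all 18 peaks lay in 1399 bp at its start. HOMER called 7 of them promoter-TSS, 6 5′ UTR and 5 intron. On the canonical transcript 12 were in the first intron and 6 upstream, none in an exon, so their call as leader peaks depends on which transcript start is taken.

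FSCN1, MIDN and EBF3 had 17 peaks each in the G325E list and 0 in each other list. FSCN1 encodes fascin, which bundles actin filaments, and 10 of its peaks were in coding sequence. MIDN, for midnolin, had 6 coding, 4 5′ UTR and 7 later-intron peaks, with 16 on the strand of the gene. EBF3, a transcription factor of the early B-cell factor family, had 7 in the 5′ UTR, 6 upstream, 2 coding and 2 in the first intron. Coding sequence held peaks of all 3 genes, most of them in FSCN1, whereas EBF3 had 13 of its 17 peaks in the 5′ UTR or upstream.

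EGLN1, SP9 and GRK5 had 16 peaks each, again with 0 in each other list. EGLN1 encodes the prolyl hydroxylase PHD2, which marks hypoxia-inducible factor for degradation when oxygen is present, and had 7 coding, 6 5′ UTR and 3 upstream peaks. SP9, a zinc finger transcription factor, had 15 coding peaks and 1 in the 3′ UTR. GRK5, a kinase of G protein-coupled receptors, had none in coding sequence, with 9 upstream, 6 in the 5′ UTR and 1 in the first intron. These genes show the range among the 373, from peaks along the open reading frame to peaks on the leader and the bases before it.

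SRF, JAG2, STK11 and SHARPIN had 15 peaks. SRF, serum response factor, had 5 in the 5′ UTR, 7 coding and 3 in the first intron. JAG2, a Notch ligand, had 8 of 15 peaks on the opposite strand. STK11 encodes LKB1, the kinase that phosphorylates AMPK, and had 10 peaks in its long canonical 5′ UTR of 1136 nt and 5 upstream, none coding. SHARPIN, a subunit of the linear ubiquitin ligase, was placed only by nearest name. All of its 15 peaks carry an accession that the RefSeq table names MAF1, and 11 lay upstream of SHARPIN, so they are uncertain for it.

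The last of the 15 genes with the most peaks were SHB, CDK2AP1 and MAP3K4, at 14 each. SHB, an SH2-domain adaptor, had 6 in the 5′ UTR, 5 coding and 3 upstream. CDK2AP1, a CDK2-associated protein, had 8 of 14 in its first intron. MAP3K4, a kinase at the head of MAP kinase cascades, had 9 of 14 peaks on the opposite strand and 8 upstream. Neither SHB, CDK2AP1 nor MAP3K4 had a majority in coding sequence.

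**Figure D5:**
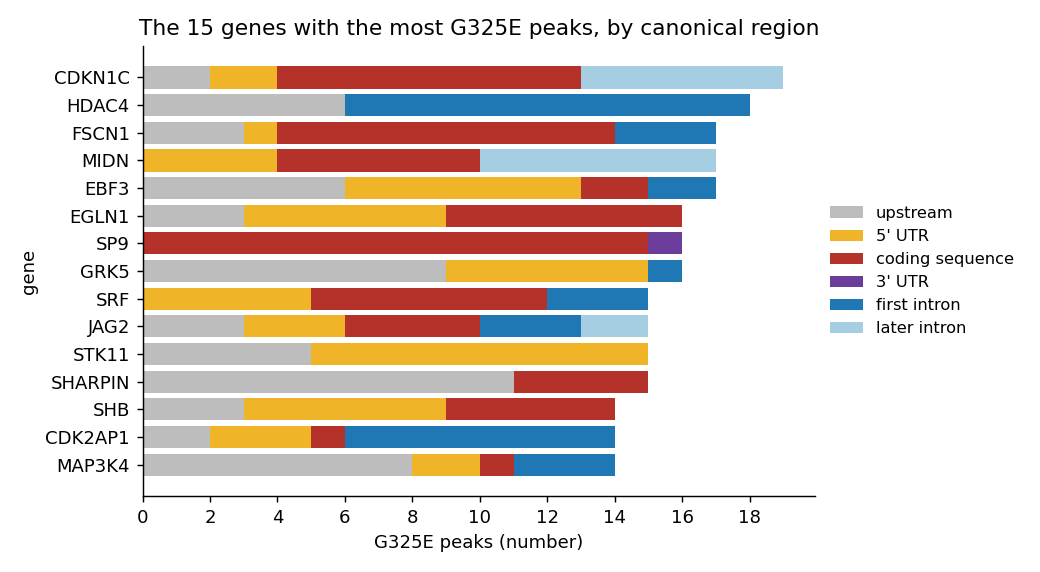
Number of G325E peaks (horizontal axis) in each region of the canonical transcript for the 15 genes with the most peaks (vertical axis), all with 0 peaks in the wild-type and vector lists. SP9 has 15 of 16 peaks in coding sequence, STK11 10 of 15 in the 5′ UTR and HDAC4 12 of 18 in the first intron.

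By role, the genes were read through 16 lists of symbol prefixes, which took in 145 of the 373 and left 228 in no list. Each list is set beside the 21.2% that the 373 genes make up of genes with at least 3 G325E peaks outside the large families. The prefix catches a few genes whose role differs from the list's name. The numbers are small, so the shares describe these lists and no list was tested.

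Kinases and proteins named for them gave 19 of 46 genes (41.3%), with a median of 8 peaks. Besides CDKN1C, STK11, CDK2AP1 and MAP3K4 they included CSNK1G2, PIM1, EPHA8, AKT1, CSNK2A2, ULK1, STK40, ULK4, PRKG1, CAMK1 and 4 subunits of protein kinase A, PRKACA, PRKACB, PRKAR1A and PRKAR2B. CDKN1C and CDK2AP1 bind kinases and are not kinases themselves, and EPHX1, a hydrolase, entered by its prefix. AKT1, the kinase downstream of PI3K, which was singled out after its values were seen, had 6 of its 8 peaks in the first intron and 0 in coding sequence. Phosphatases and their regulators gave 9 of 28 (32.1%). Among these PPP1R14C, an inhibitor of protein phosphatase 1, had 9 peaks and PPP2R5C, a regulatory subunit of protein phosphatase 2A, had 8. PPP3CA, the calcineurin catalytic subunit, and CDC25B, which activates CDKs, had 7 each.

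Transcription factors and cofactors gave 15 of 54 genes (27.8%), with a median of 9 peaks. JUND, an AP-1 subunit, and CEBPA, a regulator of myeloid and fat cell differentiation, had 13 peaks each. Both are single-exon genes, with 10 of the 13 JUND peaks and all 13 CEBPA peaks in canonical coding sequence, and 12 of 13 on the gene's strand in each. Placed by nearest name were 6 of the JUND and 7 of the CEBPA peaks, which carry accessions of other genes in the RefSeq table, for CEBPA that of CEBPA-DT, a divergent transcript. TBXAS1, thromboxane synthase, entered by its prefix with 13 peaks, all upstream of its canonical start. Beside SP9 the list also included NR2F6, MED13, SIX2, IRX2, E2F3, TCF15, DLX6, TCF4, NR1H2 and, by prefix only, the protease SPPL3. Zinc finger proteins outside the ZNF family gave 3 of 13 (23.1%), ZBTB44 with 11 peaks, ZFPM1 with 9 and PRDM6 with 7.

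Chromatin and histone modifiers gave 6 of 27 (22.2%), close to the share of all genes. PHF10 and ARID1A, subunits of the SWI/SNF remodelling complexes, had 13 and 8 peaks. BAZ1A, a subunit of ISWI remodellers, had 8, of which 6 were in the first intron and all on its own strand. KDM5C, a histone H3 lysine 4 demethylase, and PHF20L1 completed the list with HDAC4. KDM5C, also singled out by its values, had 6 peaks, all on its own strand in the 5′ UTR or coding sequence, with a median GC of 62.9%, low for these genes.

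Small GTPases and their regulators gave 13 of 40 (32.5%). ARF6, a GTPase of endocytic traffic, had 13 peaks, 10 of them in the 5′ UTR, with a median GC of 67.7%. ARL16 had 8, all placed by nearest name and given to HGS in the RefSeq table. AGAP3, an Arf GTPase-activating protein, and RAB12 had 7 each. The ubiquitin and SUMO pathway gave 14 of 60 (23.3%). UBE3A, an E3 ubiquitin ligase, had 12 peaks, of which 7 were in the 5′ UTR, 3 in the first intron and none in coding sequence. RNF19B, another E3 ligase, had 9, and USP25, a deubiquitinase, and RNF11 had 7 each.

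Signalling by Wnt, Notch, Hedgehog and TGF-beta gave 4 of 18 genes (22.2%). DVL1, which relays Wnt signals from Frizzled receptors, had 13 peaks with 7 in the 5′ UTR, and JAG2 is described above. CTNND2, delta-catenin, had 5, with a median GC of 93.5%. NOTCH2NL had 3 and belongs to a set of near-identical copies, among which reads cannot be divided with certainty. The adhesion list gave 2 of 10, PCDH7, a protocadherin, and SLITRK5, a neuronal membrane protein. Both had 10 peaks, all in coding sequence. Ion channels gave 3 of only 6 genes, among them KCNA7 with 6 peaks and TMC7 with 3.

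Cytoskeletal and motor genes gave 7 of 39 (17.9%), among them the formin FMN2 and the kinesin KIF1C with 8 peaks each and ANKS6 and CORO2B with 5 each. RNA-binding proteins outside the excluded families gave 5 of 30 (16.7%). RBMS1 had 12 peaks, SAMD4B 9 and RBM14 8. LARP1, which binds mRNAs of the translation machinery at their 5′ end, had 7, all called intron by HOMER, whereas the canonical transcript put 5 in the 5′ UTR and 2 in coding sequence. CPSF3, the endonuclease of mRNA 3′ end formation, was the fifth.

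The microRNA and membrane traffic groups were thin. The non-coding list gave 6 of 69 (8.7%), all microRNA genes by name: MIR935 with 12 peaks, MIR4515 with 10, MIR637 and MIR3665 with 7, and MIR3687 and MIR638 with 6. The nearest name placed all 7 peaks of MIR637, 5 of 6 of MIR3687 and 1 of 10 of MIR4515, and an accession placed the rest. In the first 4 genes the peaks spanned 504 to 901 bp, longer than a microRNA hairpin. Those of MIR637 carry an accession that the RefSeq table names DAPK3. Membrane traffic gave 2 of 21 (9.5%), SNAPC2, a subunit of the snRNA-activating complex that enters by prefix, with 9 peaks and EXOC6B of the exocyst with 3. TMEM proteins gave 7 of 18 (38.9%), led by TMEM99 with 10 peaks, TMEM66 with 8, TMEM161A with 6 and TMEM179B with 5. Genes named without a function gave 30 of 122 (24.6%), led by LOC100271836 with 11 peaks, LOC400236 with 9, KIAA1045 with 8 and C9orf41 with 7. LOC100271836 is now SMG1P3, a pseudogene copy of SMG1, so its peaks are uncertain for the same reason as those of NOTCH2NL.

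Some genes led a single annotation class. LRFN1, a synaptic adhesion protein, had all 11 of its peaks called Intergenic and placed by nearest name, and on the canonical transcript 6 were upstream and 4 in the first intron. REXO1 had 3 of the 5 peaks called 3′ UTR, but its 7 peaks lay upstream of the gene and carry an accession of KLF16. CDK2AP1 had the most intron peaks (8), EGLN1 the most 5′ UTR peaks (9), SP9 the most exon peaks (14) and MIR935 the most at termination sites (6).

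Assignment to genes was uncertain for part of the set. Of the 2667 peaks, 2328 were placed through an accession and 339 by the nearest gene name. In 83 genes at least 1 peak was placed by nearest name, and in 39 all were. When accessions were named through the RefSeq gene table instead, 387 genes met the rule, 344 of them shared with the 373, and 29 were lost. Of 364 genes placed on GRCh37, 9 held a wild-type or vector peak within their own bounds that the lists give to another gene. These were BBC3, DGKZ, DRAP1, GIPC1, HSPD1, LUC7L2, MFSD12, PPP2R5C and SHARPIN. BBC3, which encodes the pro-apoptotic protein PUMA, held 11 wild-type and 8 vector peaks listed for MIR3190. For these 9 the absence from the other lists holds by gene name and not by position, and the other 355 held no such peak. The symbols 5-Mar and 9-Mar, as the lists print them, are date forms of MARCHF5 and MARCHF9.

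No G325E peak of the 373 genes overlapped a peak of the wild-type or vector list, 0 of 2667 peaks, and none lay within 30 bp of one. A count of 0 allows a share of up to 0.112% if peaks are taken as independent, which neighbouring peaks are not. Of the other genes' peaks, 61.6% overlapped. This follows nearly from the rule and is given only to show that no neighbouring gene's peak covers the same bases.

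The libraries were of unequal depth, deepest for wild-type and shallowest for G325E after duplicate removal, and the part that depth has in which genes lack peaks in a list was not tested. The lists also differed in their numbering. The peak numbers ran on without a break in the G325E list, whereas the vector list of 11219 peaks skipped 1952 numbers (14.8%) and the wild-type list of 19920 skipped 3099 (13.5%). Numbers follow genome order, so a skipped number can be placed between its listed neighbours. For 149 of the 373 genes (39.9%, 35.1 to 45.0) at least 1 number was skipped in either list between the listed peaks on each side of the gene's G325E peaks. For the other 224 none was skipped in either list, CDKN1C, HDAC4, MIDN, EGLN1, GRK5, SRF, STK11, SHB and MAP3K4 among them. EBF3 had 6 skipped numbers in each list and JAG2 1 in vector and 5 in wild-type. In 19 of the 373 genes (5.09%, 3.28 to 7.82) either list skipped at least as many numbers as the gene had G325E peaks. That share was 5.43% among other genes with at least 3 G325E peaks. The stretches reach well beyond the genes, and what the skipped rows held was not analysed here. Among other genes with at least 3 G325E peaks, 64.4% had a skipped number. By the rule the 373 genes have no listed peak in the other lists, while those genes can have them. The shares of the 373 and of the other genes therefore cannot show which were more affected by skipped rows.

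The limits of the rule fell among genes with similar peaks. Inside it with 3 G325E peaks stood 47 genes, of which RBFOX2 covered 515 bases, FBXO11 335, HIATL2 306 and RMI2 270. Just outside, 41 genes had 2 G325E peaks and none elsewhere, with LOC100306951 covering 208 bases, MYEF2 206, MAP2K3 169 and ARF3 165. A further 41 had at least 3 G325E peaks and 1 peak elsewhere. CCDC86, DDX54 and WTAP each had 11 G325E peaks, with 1 wild-type and no vector peak, while BEND7 had 10 G325E peaks and 1 vector peak. The number of genes without a wild-type peak, whatever vector held, was 410.

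DDX3X, the transfected gene, had 0 peaks in the vector list, 32 in the wild-type list and 9 in the G325E list, so it is not among the 373. Fragments of the transfected and the cells' own DDX3X cannot be told apart in peak lists. The labels call the HEK293T cells neuronal. Of 15 neuronal markers 3 had a peak, TUBB3, NEFL and NEFM, in all 3 lists, while SNAP25, SYP, SYT1, RBFOX3 and the rest had none. Of 10 kidney and epithelial markers KRT8 and KRT18 had peaks, in the wild-type list only. None of these markers was among the 373 genes.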

How the data were processed

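Peak lists of 3 ribosome profiling libraries, 1 per construct, were used as the authors deposited them. Per the labels and the study's methods, the authors trimmed adapters with cutadapt, dropped reads under 21 bp, aligned with BWA 0.5.5 to hg19 (GRCh37) with RefSeq and junction sequences, removed duplicates, called peaks from base coverage and annotated them with HOMER. The lists gave positions and annotations but no peak heights or reads. Read totals stated in the study's supplement were unequal, with most reads left after duplicate removal for wild-type and fewest for G325E, and they were not used here, so precision rests on peak numbers (11219 vector, 19920 wild-type, 15680 G325E).

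Peaks were placed on GENCODE release 44 canonical transcripts lifted to GRCh37, and GC and 6-base words were read in the 31 nt around each midpoint. Peaks of no length, whose end lies 1 below their start, counted as 1 base in overlaps. Shares carry 95% Wilson intervals, and the limit for a count of 0 was 3 peaks. Named genes were the 15 with the most peaks, up to 4 per list, the leader of each annotation class, and genes at the limits of the rule. Some genes that meet the rule are not reported here by name. The members and lists were chosen with earlier results of these data known. Current names came from gene tables. The rule was tested on made-up lists with known answers. Alternatives of threshold, assignment, peak length, strand, region and list size were computed. Software was Python 3.11.15, pandas 2.3.3, numpy 2.4.6, statsmodels 0.14.6, pysam 0.24.0 and matplotlib 3.10.9.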

Additional observations from a re-analysis of the deposited data

How the results depend on the processing

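The number of genes stayed within 1.5 times of 373 under all 12 alternatives, from 282 with at least 5 peaks to 414 with at least 2. The share of peaks at 70% GC or more (83.7%) was 85.5% with G325E peaks under 30 bp apart counted as 1, 85.4% with all lists cut to the 11219 longest peaks, 78.5% over 61 nt, and 95.4% with a limit of 60%. The promoter-TSS or 5′ UTR share (56.3%) was 53.6% with peaks on the gene's strand only and 69.8% with introns and intergenic peaks left out. Canonical 5′ UTR and coding sequence together held 51.0%, and the canonical 5′ UTR alone 24.5%. Those 2 values are other measures, since they leave out upstream peaks and the first adds coding ones. The intron or intergenic share (17.9%) was 16.4% for peaks of at least 20 bp, 14.9% on the gene's strand, 20.2% with close peaks joined and 14.2% with lists of equal size. The opposite-strand share (31.7%) was 29.4% by nearest gene name, 29.2% for peaks of at least 20 bp, 29.0% without intron and intergenic peaks and 27.0% with lists of equal size. Genes with a skipped number (39.9%) fell to 0.3% when only the stretch between a gene's own G325E peaks was read, since almost no other peak lies inside it to show a skip. The other values stayed inside the intervals of the values reported, and the overlap of 0 did not change. Naming hosts through the RefSeq table and leaving out the 9 genes with another list's peak inside them were added after seeing the data. No paired analysis was possible because each construct had 1 library. Leaving out a replicate was likewise not possible. The opposite-strand share has no value when only the gene's strand counts, nor the intron or intergenic share when those classes are left out. The lists carry no read numbers and show only peaks past the authors' cut-off, and the part that unequal read totals of the libraries have in these values was not tested.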
